A study of Mus with 7 samples.

Results

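A group of 1092 probes on a mouse heart expression array carry names that begin with humanlincRNA, and they are described here across 3 CON and 4 DOX hearts. They were taken by the start of their name from 60641 lncRNA and mRNA probes, and each was printed as 1 spot on an array. The other lncRNA probes number 37190 and the mRNA probes 22359, with a probe placed in either class by the start of its name. Of the humanlincRNA probes, 542 have a name that ends its number with a plus sign and 550 with a minus sign, as in humanlincRNA2294+_P1V4 and humanlincRNA2294-_P1V4. They carry 557 different numbers, of which 535 occur with both signs and 22 with 1 sign. No source used here says what the sign stands for or which transcript a probe was made for, and probe sequences were not analysed here.

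All hearts came from male C57BL/6J mice. The CON group (replicates 1, 2 and 3) received saline, and the DOX group (replicates 1, 2, 4 and 5) received doxorubicin at 15 mg/kg, in both cases as a single intraperitoneal injection, with hearts examined on day 3. The age of the mice is not given in the sources used here, and the labels name no animal for a sample, so the p-values measure the spread between these samples. The scanner headers place the CON group in 1 scan session and the DOX group in a different one, so for every difference below treatment and scan session cannot be told apart. The RNA came from whole heart tissue, in which fewer cells of a type and less RNA per cell cannot be told apart either. The heart origin could not be checked with marker genes, since 0 of the markers set for heart and other cells were among the 46 array probes that could be given a gene symbol.

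Long intergenic non-coding RNAs (lincRNAs) are transcribed from the stretches between protein-coding genes and are not translated into protein. Many act in the nucleus on chromatin or on transcription and others bind microRNAs or proteins in the cytoplasm, and they are known for low levels and for being restricted to few tissues. Their sequences are in general less conserved between human and mouse than those of mRNAs. Doxorubicin is an anthracycline that intercalates into DNA and poisons topoisomerase II, and its dose is limited in patients by damage to heart muscle. Whether a humanlincRNA probe matches a human sequence, a mouse sequence or both was not tested.

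Most humanlincRNA probes gave a signal in mouse heart, but they did so less often than the other lncRNA probes. Detection was read from the scanner software's mark for a spot well above background. In the CON group 730, 749 and 714 of the 1092 probes were well above background on replicates 1, 2 and 3, which is 66.9%, 68.6% and 65.4%. In the DOX group the numbers were 684, 731, 753 and 725 on replicates 1, 2, 4 and 5, which is 62.6%, 66.9%, 69.0% and 66.4%. The groups overlapped, with DOX replicate 1 the lowest of the 7 arrays and DOX replicate 4 the highest. Among the other lncRNA probes the share was 87.1% to 88.8% in CON and 84.9% to 88.4% in DOX, so that every array separated both sets in the same direction. Of the 308 negative control spots, 1 to 5 were well above background on an array.

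Taken over all arrays, 578 humanlincRNA probes (52.9%) passed this mark on all 7, 207 on 3 to 6, 99 on 1 or 2, and 208 (19.0%) on none. For the other lncRNA probes the shares were 79.8% on all 7 and 5.54% on none. Probes whose names begin with mouselincRNA, a set of 639 on the same array, were close to the humanlincRNA probes, with 54.0% on all 7 arrays and 17.4% on none. The 752 probes named ASMM10UP were close as well, with 53.9% on all 7 arrays. The large set of 27812 probes named ASMM10LNC1A had 83.2%. Plus and minus probes hardly differed in detection, at 52.4% and 53.5% on all 7 arrays. There were 42 humanlincRNA probes well above background on all CON arrays and on no DOX array, and 32 with the reverse pattern, which is 3.85% and 2.93%, where all probes had 1.63% and 0.999%. None of the 1092 spots was saturated on any array.

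The same order was seen in brightness. Before normalization the median signal intensity of the humanlincRNA probes was 16.9, 18.9 and 19.1 on the CON arrays and 21.4, 26.0, 27.2 and 27.0 on the DOX arrays. The other lncRNA probes had medians of 48.9, 58.8 and 57.4 on the CON arrays and 89.5, 103, 109 and 108 on the DOX arrays. Both sets were thus brighter on every DOX array than on any CON array before the arrays were brought to a common scale. After quantile normalization the median log2 signal of the humanlincRNA probes was 4.30, 4.24 and 4.29 on the CON arrays and 4.53, 4.58, 4.54 and 4.54 on the DOX arrays, against 6.22 on each CON array and 6.31 to 6.34 on the DOX arrays for the other lncRNA probes. The humanlincRNA probes spread widely around that median. On CON replicate 1 the middle 50% lay between 2.67 and 5.76 on the log2 scale, while the brightest probe reached 14.67.

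A sign of RNA quality also differed between the groups. The control probes for the 3′ and the 5′ end of the mouse glycolytic gene PGK1 had a ratio of signal intensities (3′ over 5′) of 104, 104 and 122 on the CON arrays and 248, 263, 274 and 249 on the DOX arrays. For the mouse GAPDH control probes the ratio was 2.31, 2.09 and 2.25 on the CON arrays and 3.52, 4.14, 3.78 and 3.82 on the DOX arrays, and for those named for human GAPDH it was 13.4, 12.5 and 13.6 against 14.0, 13.8, 13.4 and 13.1. For those named for human PGK1 it was 120, 122 and 134 against 326, 339, 341 and 251. The ratio was higher on every DOX array than on any CON array for all of them except human GAPDH, for which the groups overlapped. Its part in the differences below was not tested.

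The comparison of DOX with CON addressed which lncRNAs differ in the heart after doxorubicin. A probe was tested when it was well above background on at least 3 arrays, which 785 humanlincRNA probes (71.9%) were, and it was called up-regulated or down-regulated at more than 2-fold with an adjusted p under 0.05 (limma, Benjamini-Hochberg over all 55492 tested probes). Compared with the CON group, 177 humanlincRNA probes rose and 58 fell in the DOX group, and 550 did not pass. Over all tested probes 31.6% were called, 15.5% up and 16.1% down, and over the other lncRNA probes 31.1% were called, 18.2% up and 12.9% down. The humanlincRNA probes stood at 22.6% up and 7.39% down, near the background in total and with a larger share of rises. Their median log2 change was 0.25, beside 0.05 for the other lncRNA probes and -0.07 for all tested probes. This balance depended on the processing. With normexp background correction 7.26% of the humanlincRNA probes were up and 0% down, beside 10.03% and 5.10% of the other lncRNA probes, and with limma's treat 8.41% were up and 3.31% down, beside 9.23% and 4.97%. With each array scaled to its 75th percentile, 77 humanlincRNA probes were called up and 179 down, which is 9.81% and 22.8%, beside 11.1% up and 27.5% down over all tested probes and 12.8% up and 24.9% down over the other lncRNA probes. The median log2 change was then -0.41 for the humanlincRNA probes and -0.44 for all tested probes. The mouselincRNA probes showed 18.1% up and 5.89% down under quantile normalization, with a median log2 change of 0.22. Probes named ASMM10P had 26.3% up and 8.705% down (median 0.27), ASMM10UP 19.2% and 6.97% (0.21), and MM9LINCRNAEXON 17.2% and 3.125% (0.24). The ASMM10LNC1A probes, 25777 of the 33694 other lncRNA probes tested, had 16.0% up and 14.3% down (-0.01). The larger share of rises was thus not particular to the humanlincRNA probes. A set of probes is no sample of the hearts, and none of these shares was tested against another.

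In 494 of the 783 humanlincRNA probes measured on every array (63.1%), no DOX array overlapped with any CON array, 336 with DOX above and 158 with DOX below, where the background over all tested probes was 67.4% (31.1% above and 36.3% below) and over the other lncRNA probes 66.0% (35.1% above and 30.9% below). Arrays of a group resembled each other. Over these 783 probes, the log2 signals of any pair of CON arrays had a Pearson correlation of 0.97 and any pair of DOX arrays one of 0.97 to 0.98, while pairs of a CON and a DOX array gave 0.80 to 0.86, where the points are probes that share arrays. The SD of the log2 signal of a probe within a group had a median of 0.22 in the CON group and 0.19 in the DOX group. Of the 578 probes detected on all 7 arrays 107 (18.5%) were up-regulated and 7 (1.21%) down-regulated. All tested probes of this kind gave 14.0% up and 14.6% down, and the other lncRNA probes 16.61% and 11.02%. The mouselincRNA probes of this kind (345) had 13.62% up and 1.449% down, ASMM10UP (405) 15.31% and 4.691%, and MM9LINCRNAEXON (54) 11.11% and 1.852%. The ASMM10P probes had 23.24% and 7.123%, and ASMM10LNC1A 15.04% and 12.26%. The small share of falls was thus not particular to the humanlincRNA probes. The number of arrays with detection is itself moved by a rise or a fall, so these shares describe the bright probes and are no test. With 75th percentile scaling the 578 probes held 60 rises (10.4%) and 77 falls (13.3%). All probes of this kind then gave 11.2% up and 24.2% down, and the other lncRNA probes 13.1% and 21.06%.

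The calls were also counted by signal, with the 55492 tested probes divided into 4 bins of equal size by mean normalized log2 signal, at 5.34, 6.82 and 8.66. The mean was taken over all arrays, DOX included, so a rise can lift a probe into a higher bin and a fall can lower it. An example is humanlincRNA0518+_P1V4, in the highest bin with a mean of 6.64 in CON and 10.18 in DOX. The shares by bin are therefore a description and no test. More than 50% of the tested humanlincRNA probes, 415, lay in the lowest bin, and 187, 123 and 60 in the next ones. In the lowest bin 97 (23.4%) were up-regulated and 54 (13.0%) down-regulated, where all probes of the bin gave 15.7% and 18.1%. In the second bin there were 35 rises (18.7%) and 3 falls (1.60%), where all probes gave 11.9% and 10.6%. In the third there were 23 (18.7%) and 1 (0.813%), where all probes gave 13.5% and 14.3%, and in the highest 22 (36.7%) and 0, where all probes gave 20.8% and 21.4%. The falls above the lowest bin were humanlincRNA0748-_P1V4, humanlincRNA1395+_P1V4, humanlincRNA1627-_P1V4 and humanlincRNA1364+_P1V4. Among the other lncRNA probes the highest bin held 27.2% up and 15.4% down, and the third 16.1% up and 11.5% down. Of the 60 bright humanlincRNA probes, 49 had a positive log2 change and 11 a negative one, over a range of -0.81 to 4.65. Of the negative changes 9 had an adjusted p under 0.05 and 10 an unadjusted p under 0.05 in limma, and none reached 2-fold. One of the 22 rises, humanlincRNA2246-_P1V4, was measured on 1 DOX array after spots of uneven brightness were dropped. Of the 59 measured on every array, 74.6% had all DOX arrays above all CON arrays and 16.9% below them, where the other lncRNA probes of this bin had 48.8% and 30.7% and all probes of it 39.5% and 40.0%. The lowest and the second bin turned with the scaling. With 75th percentile scaling there were 19 rises (4.58%) and 158 falls (38.1%) in the lowest bin, where all probes gave 4.02% and 49.5%, and 12 rises (6.42%) and 17 falls (9.09%) in the second, where all probes gave 6.27% and 24.4%. The third bin then held 21 rises and 4 falls (17.1% and 3.25%, beside 11.3% and 16.9%), and the highest 25 and 0, where the other lncRNA probes had 29.3% up and 13.8% down. The authors' values and the methods' t-test each gave 21 rises and 0 falls in the highest bin, normexp and the replicate block 20 and 0, and limma's treat against a 2-fold change 11 and 0. Under the first 4 of these settings the other lncRNA probes of the bin had 26.7%, 27.0%, 25.8% and 27.1% up and 15.7%, 14.99%, 14.3% and 15.6% down. Under treat the share of rises was 18.3%, close to the 17.0% of the other lncRNA probes, of which 6.92% were down.

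Among the 106 up-regulated probes that were detected on all 7 arrays and did not overlap between groups, humanlincRNA1016-_P1V4 and humanlincRNA0644-_P1V4 had the largest log2 changes, and their order depended on 1 array, being turned without DOX replicate 5 (4.61 and 4.68). The normalized log2 signal of humanlincRNA1016-_P1V4 was 9.18, 9.10 and 8.62 on CON replicates 1, 2 and 3 and 13.22, 14.00, 13.51 and 13.73 on DOX replicates 1, 2, 4 and 5. All DOX arrays were far above the CON arrays, and the log2 change was 4.64 (SE 0.214, adjusted p = 3.77e-06), with DOX signals among the bright ones of the set. The probe with the same number and a plus sign, humanlincRNA1016+_P1V4, had 8.15, 7.81 and 8.11 in CON and 8.58, 8.06, 8.64 and 8.51 in DOX, with a log2 change of 0.42 (SE 0.168, adjusted p = 0.0554) that did not pass.

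The probe humanlincRNA0644-_P1V4 had log2 signals of 5.74, 5.84 and 4.61 in CON and 9.95, 10.84, 9.43 and 9.02 in DOX. Its log2 change was 4.41 (SE 0.467, adjusted p = 0.000111), and its plus counterpart was well above background on 1 array only. The probe humanlincRNA2316-_P1V4 had 5.21, 4.73 and 4.23 in CON and 8.65, 9.16, 7.68 and 9.47 in DOX, a log2 change of 4.02 (SE 0.427, adjusted p = 0.000114). Its plus counterpart lay the other way, at 7.19, 6.97 and 6.97 in CON and 6.66, 6.50, 6.48 and 6.68 in DOX, with a log2 change of -0.46 (SE 0.112, adjusted p = 0.00719) that stayed under 2-fold. Here the probes of 1 number did not share a direction.

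The probe humanlincRNA1645+_P1V4 went from 4.76, 4.64 and 4.46 in CON to 8.11, 8.92, 7.87 and 8.07 in DOX, with a log2 change of 3.62 (SE 0.243, adjusted p = 1.41e-05), and its minus counterpart was well above background on 0 arrays. The probe humanlincRNA0518+_P1V4, whose number has no minus probe, had 6.78, 6.60 and 6.54 in CON and 9.92, 10.77, 9.82 and 10.23 in DOX, a log2 change of 3.54 (SE 0.227, adjusted p = 1.19e-05). The probe humanlincRNA0469-_P1V4 had 6.38, 6.48 and 6.32 in CON and 9.48, 10.34, 9.66 and 9.63 in DOX, a log2 change of 3.39 (SE 0.203, adjusted p = 9.57e-06). In these 3 probes the CON arrays were close to each other, and DOX replicate 2 was the highest array. The counterpart humanlincRNA0469+_P1V4 was detected on all 7 arrays and changed by 0.14 (SE 0.104, adjusted p = 0.265). With normexp background correction the log2 changes of these 3 rises were 2.15, 2.965 and 2.74. Those of humanlincRNA1016-_P1V4, humanlincRNA0644-_P1V4 and humanlincRNA2316-_P1V4 were 4.49, 3.27 and 2.56. All of these rises stayed called.

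Of the 4 members with the highest mean normalized log2 signal over all 7 arrays, the choice of the last depended on the weight of the groups. With both groups weighted equally humanlincRNA0847-_P1V4 (13.77) would pass humanlincRNA0635+_P1V4 (13.68). The brightest in both groups was humanlincRNA2397+_P1V4, with log2 signals of 14.67, 14.63 and 14.71 in CON and 15.40, 15.29, 15.34 and 15.29 in DOX. Its DOX arrays lay above the CON arrays by 0.66 (SE 0.0905, adjusted p = 0.000411), which is 1.58-fold and short of the 2-fold threshold. The probe humanlincRNA2330+_P1V4 lay at 14.32, 14.23 and 14.15 in CON and 14.70, 14.59, 14.68 and 14.49 in DOX, a 1.30-fold difference (SE of the log2 change 0.103, adjusted p = 0.0130). The other 2 of the 4 were up-regulated. The probe humanlincRNA1739+_P1V4 had 13.62, 13.50 and 13.44 in CON and 14.85, 14.70, 14.55 and 14.55 in DOX, a 2.21-fold rise (adjusted p = 8.62e-05), and humanlincRNA0635+_P1V4 had 12.85, 13.20 and 12.14 in CON and 14.71, 15.11, 14.45 and 14.21 in DOX, a 3.70-fold rise (adjusted p = 0.000784). Under limma's treat against a 2-fold change neither of these rises passed. The minus probes of humanlincRNA2330+_P1V4 and humanlincRNA1739+_P1V4 were well above background on 0 arrays, with log2 signals of 1.13 to 1.69 and of 1.13 to 2.61. The minus probe of the brightest one was detected on all 7 arrays, at 10.37, 10.09 and 10.12 in CON and 11.19, 11.19, 11.16 and 11.20 in DOX.

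Under quantile normalization, falls of probes detected on every array were fewer and smaller than rises. Only 7 probes well above background on all 7 arrays were down-regulated, and in 6 of them the groups did not overlap, the exception being humanlincRNA0748-_P1V4 (log2 change -1.03, SE 0.274, adjusted p = 0.0110). The probe humanlincRNA2125-_P1V4 had log2 signals of 6.12, 5.66 and 6.01 in CON and 4.20, 4.39, 4.23 and 4.45 in DOX, a log2 change of -1.61 (SE 0.139, adjusted p = 4.20e-05). Its plus counterpart moved the other way, from 1.56, 2.10 and 2.20 in CON, where it was well above background on no array, to 4.19, 4.02, 4.27 and 4.32 in DOX. The probe humanlincRNA1857-_P1V4 had 5.65, 5.26 and 4.92 in CON and 4.08, 3.64, 4.26 and 4.18 in DOX, a log2 change of -1.24 (SE 0.213, adjusted p = 0.00135). The probe humanlincRNA1627-_P1V4 had 7.07, 7.13 and 6.93 in CON and 5.99, 5.88, 5.74 and 6.06 in DOX, a log2 change of -1.12 (SE 0.115, adjusted p = 9.60e-05). In both of them every DOX array was below every CON array, which was a condition for choosing these falls. With normexp background correction the log2 changes of these 3 probes were -0.61, -0.38 and -0.69 and no longer passed. Limma's treat against a 2-fold change kept the call of humanlincRNA2125-_P1V4 alone. With 75th percentile scaling the 3 log2 changes were larger, at -2.32, -2.10 and -1.45.

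The other falls of this kind were just past 2-fold. The probe humanlincRNA1395+_P1V4 had 6.17, 5.94 and 6.09 in CON and 4.36, 5.17, 5.65 and 4.66 in DOX, a log2 change of -1.10 (SE 0.287). The probe humanlincRNA1364+_P1V4 had 7.58, 7.49 and 7.81 in CON and 6.76, 6.24, 7.24 and 6.07 in DOX, a log2 change of -1.05 (SE 0.274), and its bright minus counterpart changed by -0.78 (SE 0.162), from 12.17, 12.07 and 12.66 to 11.44, 11.41, 11.70 and 11.53. The DOX arrays of the plus probe were spread over more than 1 unit of log2 and lay below the CON arrays, as the choice of these falls required. The probe humanlincRNA1556-_P1V4 had 5.45, 5.37 and 5.45 in CON and 4.25, 4.50, 4.36 and 4.42 in DOX, a log2 change of -1.04 (SE 0.101). With 75th percentile scaling the log2 changes of these falls were -1.70, -1.24 and -1.82, in the order given. The calls were lost under normexp and under treat. Under quantile normalization they were near the threshold, and single arrays decided them. The log2 change of humanlincRNA1395+_P1V4 was -0.91 and that of humanlincRNA1556-_P1V4 -0.997 without DOX replicate 1, short of 2-fold, and that of humanlincRNA1364+_P1V4 was -0.96 without CON replicate 3, -0.93 without DOX replicate 2 and -0.88 without DOX replicate 5.

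Some probes were seen in 1 group only. Of the up-regulated probes 40 had no CON array well above background, and of the down-regulated probes 40 had no DOX array well above it, which is 22.6% of the rises and 69.0% of the falls, where all tested probes had 9.33% and 10.1% and the mouselincRNA probes 22.1% and 57.1%. For these a fold change is a lower bound, taken against the lowest signal well above background on each array of the dim group. They passed the filter through the bright group alone, so they had to differ, and the adjusted p given for each is that of the fit on the measured signals and no separate support. The probe humanlincRNA2294+_P1V4 was not well above background in CON, at 1.13, 1.13 and 1.76, and reached 6.68, 7.27, 6.89 and 6.16 in DOX, at least 10.6-fold higher (adjusted p = 5.38e-06). The probe humanlincRNA1655-_P1V4 had 1.49, 1.95 and 1.13 in CON and 5.66, 7.70, 7.44 and 5.31 in DOX, at least 9.07-fold higher (adjusted p = 0.000218), and humanlincRNA0493-_P1V4 had 1.54, 1.44 and 2.06 in CON and 5.48, 8.03, 7.60 and 5.01 in DOX, at least 9.08-fold higher (adjusted p = 0.000682). In the last pair DOX replicates 2 and 4 were clearly above DOX replicates 1 and 5. With normexp background correction the log2 changes of these rises were 1.49, 1.42 and 1.49, and they still passed. These values lie below the bounds (3.40, 3.18 and 3.18 on the log2 scale), so the bounds hold for the main processing only.

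The 3 falls with the largest fitted changes had low bounds, and other falls had higher ones than humanlincRNA1857+_P1V4 and humanlincRNA0105+_P1V4 below, such as humanlincRNA1480+_P1V4 with at least 2.47-fold, so the order of these falls is not known. The probe humanlincRNA1088+_P1V4 went from 4.92, 4.49 and 5.08 in CON to 1.30, 2.76, 1.46 and 1.76 in DOX, at least 2.52-fold lower (adjusted p = 0.000164). The probe humanlincRNA1857+_P1V4 went from 4.81, 4.08 and 4.19 to 1.30, 1.13, 1.48 and 1.14, at least 1.83-fold lower (adjusted p = 1.06e-05), and its minus counterpart was described above as down-regulated on detected arrays. The probe humanlincRNA0105+_P1V4 went from 5.02, 3.86 and 4.23 to 1.30, 1.15, 1.36 and 1.76, at least 1.84-fold lower (adjusted p = 5.88e-05). In all 3 the CON arrays were above every DOX array, but they were chosen as falls not detected in DOX, so this is no separate support. None of the 3 passed under normexp, with log2 changes of -0.55, -0.35 and -0.52.

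A split of the DOX arrays like that of the last rises recurred. In 18 of the 177 up-regulated humanlincRNA probes (10.2%), DOX replicates 2 and 4 were both more than 2-fold above DOX replicates 1 and 5, a pattern that was noticed in the values first, and among the up-regulated other lncRNA probes 4.28% showed it. An example is humanlincRNA2350-_P1V4, with log2 signals of 4.58, 4.75 and 4.67 in CON and 6.01, 8.26, 8.10 and 5.54 in DOX (log2 change 2.31, adjusted p = 0.0166). Even the lower DOX arrays lay above the CON arrays there. Another order recurred in 7 up-regulated probes (3.96%, beside 2.11% of the up-regulated other lncRNA probes), namely DOX replicate 2 above 1, 4 and 5 in that order and CON replicate 2 above 1 and 3. It held for humanlincRNA0644-_P1V4 and humanlincRNA0635+_P1V4 above and for humanlincRNA0502-_P1V4, whose CON arrays had a mean of 9.49 ± 0.57 (SD, n = 3), with 12.78, 13.58, 12.24 and 11.84 in DOX (log2 change 3.12, adjusted p = 0.000422).

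Probes of 1 number and opposite signs were compared next, since they share a number in their names. Whether they share a target is not given in the sources used here. Of the 535 pairs both probes were tested in 276, 1 probe in 212 and neither in 47. The plus probe was the tested one in 101 of the 212 and the minus probe in 111. Both probes were well above background on all 7 arrays in 159 pairs, and in 96 pairs 1 probe was on all 7 and the other on none. Of the 562 paired probes detected on all 7 arrays 56.6% had a counterpart detected on all 7, and of the 508 paired probes that were not, 48.0% had one.

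In the 276 pairs with both probes tested, the log2 changes of the plus and the minus probe had a Pearson correlation of 0.08 and a Spearman correlation of 0.05, and their mean log2 signals a Pearson correlation of 0.16, over pairs measured on the same 7 arrays. The changes differed by more than 2-fold in 124 pairs, and their signs agreed in 154. Both probes were up-regulated in 14 pairs and both down-regulated in 4, while the calls were opposite in 6. These calls used the fitted changes, and in 4 of the 14, 2 of the 4 and 5 of the 6 pairs a probe was well above background in 1 group only and its bound was under 2-fold. In 86 pairs 1 probe was up-regulated and the other did not pass, in 25 pairs 1 was down-regulated and the other did not pass, and 141 pairs had no call. Of the 120 up-regulated probes in these pairs 28 had an up-regulated counterpart, and of the 39 down-regulated ones 8 had a down-regulated counterpart. Over all tested humanlincRNA probes 22.6% were up-regulated, 7.39% down-regulated and 61.7% had a positive change. Some pairs therefore agree without any link between their probes, and an excess over that was not tested. In the 159 pairs with both probes detected on all 7 arrays the Pearson correlation was 0.04 under either scaling, and under quantile normalization 8 pairs had both probes up-regulated and 0 had opposite calls or falls in both probes by limma. With 75th percentile scaling 3 of the 159 pairs had rises in both probes, 3 had falls in both and 3 had opposite calls, namely humanlincRNA0502, humanlincRNA1256 and humanlincRNA1382. With 75th percentile scaling both rose in 3 of the 276 pairs, both fell in 16, the calls were opposite in 7, of which 1 was opposite under quantile normalization as well, and the Pearson correlation was 0.14. Among pairs with both probes detected on all 7 arrays the log2 changes differed most in humanlincRNA2316, by 4.48, and next in humanlincRNA1016, by 4.22, with both probes of each described above. By fitted change the difference was larger for humanlincRNA2294+_P1V4, whose rise is a bound. Its counterpart humanlincRNA2294-_P1V4 lay at 5.36, 5.63 and 5.25 in CON and 5.50, 5.41, 5.43 and 5.47 in DOX. The log2 change of this counterpart was 0.04 (SE 0.116, adjusted p = 0.800). With 75th percentile scaling it was -0.59 (limma, adjusted p = 0.00166), lower in DOX by less than 2-fold.

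Some pairs, chosen after their values were seen, show the extremes. The probes humanlincRNA2163+_P1V4 and humanlincRNA2163-_P1V4 were both bright and both rose, the plus probe from 9.34, 9.11 and 9.20 in CON to 11.13, 11.65, 11.15 and 11.37 in DOX (log2 change 2.11, SE 0.150, adjusted p = 1.78e-05), and the minus probe from 10.71, 10.54 and 10.48 to 12.25, 11.89, 12.17 and 12.37 (log2 change 1.59, SE 0.138, adjusted p = 4.40e-05). The probe humanlincRNA1119+_P1V4 rose by 1.38 and humanlincRNA1119-_P1V4, from 5.45, 5.57 and 5.71 to 8.40, 8.66, 8.61 and 8.53, by 2.98 on the log2 scale (adjusted p = 2.35e-06). The 4 pairs with falls in both probes are named humanlincRNA0944, humanlincRNA1051, humanlincRNA1480 and humanlincRNA1857, and in the first 3 of these neither probe was well above background on any DOX array. The 6 pairs with opposite calls are named humanlincRNA0083, humanlincRNA0566, humanlincRNA1638, humanlincRNA1712, humanlincRNA2125 and humanlincRNA2259. In the first 5 of these a probe was well above background in 1 group only, with bounds of 1.24-fold to 1.80-fold, so its change is not shown to exceed 2-fold. The probe humanlincRNA1712+_P1V4 went from 4.27, 4.44 and 4.12 to 3.17, 2.62, 2.51 and 3.21, where no DOX array was well above background, at least 1.72-fold lower (adjusted p = 0.000563), and humanlincRNA1712-_P1V4 from 4.16, 4.05 and 3.74 to 5.53, 6.12, 5.29 and 5.38 (log2 change 1.60, adjusted p = 0.000365). With 75th percentile scaling the rising probe lost its call in 5 of these 6 pairs, with log2 changes of 0.46, 0.86, 0.70, 0.63 and 0.02, and the calls stayed opposite in humanlincRNA0566, whose minus probe was not well above background on any DOX array.

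Under quantile normalization, 3 members detected on all 7 arrays were steadiest, taken as those with the smallest SD over all 7 arrays. The probe humanlincRNA1436+_P1V4 had log2 signals of 5.56, 5.66 and 5.54 in CON and 5.55, 5.53, 5.56 and 5.50 in DOX, with an SD of 0.05 over the 7 arrays. The probe humanlincRNA0114+_P1V4 had 7.96, 7.83 and 7.84 in CON and 7.83, 7.80, 7.84 and 7.86 in DOX, with an SD of 0.05. The probe humanlincRNA0747-_P1V4 had 7.31, 7.44 and 7.41 in CON and 7.31, 7.41, 7.33 and 7.43 in DOX, with an SD of 0.06. In all 3 the groups overlapped. With 75th percentile scaling their log2 changes were -0.63 (adjusted p = 0.000406), -0.12 (adjusted p = 0.279) and -0.16 (adjusted p = 0.163), so that the first was lower in DOX under that scaling, by less than 2-fold. The counterpart humanlincRNA1436-_P1V4 was at least 1.91-fold higher in DOX, with no CON array well above background, and humanlincRNA0114-_P1V4 at least 1.19-fold lower, with no DOX array well above it. The counterpart humanlincRNA0747+_P1V4 was detected on all 7 arrays and had a log2 change of -0.70 (SE 0.147, adjusted p = 0.00364), short of 2-fold.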

How the data were processed

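Each of the 7 heart samples was hybridised to its own single-colour array (Agilent, Cy3) after rRNA removal and random-primed labelling. The intensity values of each spot were deposited by the authors as Agilent Feature Extraction 11.0.1.1 output, background-subtracted and not normalized between arrays. The detection marks are deposited scores of 0 or 1 per spot from the same software. The authors also deposited a table of log2 values, quantile-normalized in GeneSpring, which served as an alternative.

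Here log2 intensity was quantile-normalized over the 7 arrays without control spots, and spots marked as uneven were dropped. For humanlincRNA2246-_P1V4 this left 1 DOX array. Probes with this detection mark on 3 or more arrays were fitted with limma 3.58.1 (lmFit, eBayes) in R 4.3.3, DOX against CON without covariates, with Benjamini-Hochberg adjustment over all tested probes. The fold and p thresholds and the quantile method follow the study's methods, and limma replaced their t-test. The fit was tested on simulated data, and no value printed here comes from them. The division of names into lncRNA and mRNA comes from an earlier match to the study's counts.

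Probes were named by rule, namely the 6 largest rises and 6 largest falls among called members detected on all arrays without overlap, the 4 with the highest mean signal, the 3 with the smallest SD, the 3 largest rises and falls detected in 1 group only, and the pair that differed most. Rises, falls and pairs were ranked by fitted change, also where 1 group was not well above background. The members, lists and tests were chosen with earlier results of these data known. Alternatives were 75th percentile scaling, normexp (offset 50), other filters, the methods' t-test, limma's treat, the authors' values, adjustment over lncRNA probes alone, a replicate block and leaving out each array. The small number of arrays limits the precision.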

Additional observations from a re-analysis of the deposited data

How the results depend on the processing

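Of the counts of called humanlincRNA probes (177 up, 58 down) and their median log2 change (0.25), the direction of the median held under all alternatives run except 75th percentile scaling, which gave 77 up, 179 down and a median of -0.41. Normexp on the median spot signals, chosen after seeing the data because the mean signals of the planned version were not in the files used, gave 57 up, 0 down (8.63% and 7.73% over all tested probes) and 0.085 in limma, with 153 negative changes at an unadjusted p under 0.05 and none past 2-fold. Without a filter on dim probes there were 208 rises and 103 falls (19.05% and 9.43%, beside 15.1% and 15.9% of all probes) and a median of 0.15. With all arrays required there were 107 rises and 7 falls (18.5% and 1.21%). All probes then had 14.0% and 14.6%, and the other lncRNA probes 16.63% and 11.03%. Limma's treat against a 2-fold change called 66 and 26 (8.41% and 3.31%, beside 7.65% and 6.39% of all probes). Leaving out each array gave 164 to 178 rises, 51 to 59 falls and medians of 0.24 to 0.27. Over all tested probes it gave 15.08% to 15.65% up, 15.75% to 16.36% down and medians of -0.083 to -0.060. The share of members detected was 71.9%, 92.5% by either looser rule and 52.9% with all arrays required, and 67.4% to 71.3% with an array left out. The median log2 signal of the members minus that of the other lncRNA probes was -1.88, it was -1.85 with 75th percentile scaling, and -1.93 to -1.83 with an array left out. The cause of these shifts was not tested.

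Replicate numbers shared by CON and DOX are 1 and 2, and deviations of same-numbered arrays correlated at 0.03 and -0.11. The sources used here do not say whether same-numbered samples share more than a number, and so few correlations cannot settle it. With the replicate block 169 humanlincRNA probes rose and 61 fell (21.5% and 7.77%). Over all tested probes 15.7% rose and 16.35% fell, and over the other lncRNA probes 18.35% and 13.1%. The log2 change of humanlincRNA0644-_P1V4 (4.61) was then above that of humanlincRNA1016-_P1V4 (4.47).

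For the 26 named probes, 209 values from settings that used all arrays kept the direction and side of the threshold and 16 lost the call, the latter being all 9 falls under normexp and 7 probes under treat. Reversals occurred in 2 probes whose changes were near 0 under quantile normalization. The log2 change of humanlincRNA2294-_P1V4 was -0.59 with 75th percentile scaling, -0.011 with normexp, -0.043 with the block and -0.047 (without CON replicate 3) to 0.14 with an array left out, and that of humanlincRNA0747-_P1V4 was 0.0024 without DOX replicate 1 and ranged from -0.055 to 0.0073 (without CON replicate 2) with an array left out.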

Other observations

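The arrays also carry control probes named for human and mouse transcripts, each printed 10 times, whose median signal intensities before normalization are given here as values. Human-GAPDH_3 read 44100, 48600 and 47200 on the CON arrays and 28200, 27400, 28400 and 29100 on the DOX arrays, and Mouse-GAPDH_3 read 66400, 65300 and 69900 on the CON arrays and 50600, 59300, 59800 and 52800 on the DOX arrays. Human-PGK1_3 read 8410, 11800 and 10300 on the CON arrays and 10100, 8560, 13600 and 8360 on the DOX arrays. Human-GAPDH_5 read 3290, 3900 and 3480 in CON and 2020, 1980, 2120 and 2210 in DOX, and Human-PGK1_5 was dim, at 70.1, 96.6 and 76.9 in CON and 30.9, 25.3, 39.8 and 33.3 in DOX. Mouse-GAPDH_5 read 28700, 31300 and 31000 in CON and 14400, 14300, 15800 and 13800 in DOX, Mouse-PGK1_3 read 21200, 30100 and 26200 in CON and 21900, 18800, 29800 and 20300 in DOX, and Mouse-PGK1_5 read 204, 290 and 216 in CON and 88.4, 71.2, 109 and 81.3 in DOX. GAPDH and PGK1 are glycolytic enzymes. All GAPDH probes and both PGK1_5 probes were lower on every DOX array than on any CON array, while both PGK1_3 probes overlapped between groups. Whether humanlincRNA probes bind mouse transcripts was not tested.

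Of 29 items checked for a DOX array standing apart from the other 3, none passed Dixon's 95% critical value.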
